A study of Bos taurus with 18 samples.

Results

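The genes described here are a set of 39 that code for the fatty acid-sensing nuclear receptors of the PPAR family, their RXR partners, lipid-handling genes known as PPAR targets, and the enzymes of fatty acid oxidation in mitochondria and peroxisomes. They were chosen by gene symbol, and 38 of the 39 were found in the table of 27270 genes. ETFB, the beta subunit of the electron transfer flavoprotein, was not analysed here. All 38 passed the filter on low counts, which left 22202 genes for testing. RNA was measured by RNA-seq in rumen papillae, the finger-like folds of the rumen wall, of 9 rumen-cannulated, non-lactating Holstein cows. Of these 4 were assigned to a supplement that the labels call PHY and do not expand, and 5 were controls. Biopsies were taken at a 100% forage baseline and after the change to high grain with 65% concentrate, which gave 4 groups of libraries: grain_PHY (n = 4), grain_control (n = 5), forage_PHY (n = 4) and forage_control (n = 5). The labels do not say whether PHY was already fed at the forage biopsy, and they tie no library to a cow, so libraries are numbered in order of deposit and were compared as independent samples; p-values measure the spread between libraries. Age is not given in the sources used here.

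PPARA, PPARD and PPARG are transcription factors that bind fatty acids and their derivatives, pair with an RXR receptor on DNA, and in many tissues raise the transcription of genes for fatty acid uptake, storage and oxidation. Long-chain fatty acids enter mitochondria as carnitine esters and are shortened there by repeated dehydrogenation, hydration, a further dehydrogenation and thiolysis, with electrons passed on through the electron transfer flavoprotein. Peroxisomes run a parallel route for very long and branched chains, whose opening oxidase makes hydrogen peroxide. The rumen epithelium absorbs short-chain fatty acids from fermentation, and it oxidises butyrate and turns part of it into ketone bodies.

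Library totals ran from 3953060 to 15474334 reads in grain_PHY and from 5433497 to 23949058 in grain_control, against 18655841 to 34471682 in forage_PHY and 15808999 to 33935756 in forage_control. Reads on 144 olfactory receptor genes, a class of sensory genes of the nose, summed to 42.1 to 345.3 CPM (counts scaled to a fixed library total, here of raw reads) in grain_PHY and 32.9 to 168.6 CPM in grain_control. They summed to 20.8 to 32.2 CPM in forage_PHY and 16.3 to 65.0 CPM in forage_control. On the TMM-scaled library sizes used for all other CPM here, they summed to 51.6 to 147.8 in grain_PHY and 32.01 to 110.7 in grain_control, against 21.1 to 36.99 in forage_PHY and 17.9 to 68.7 in forage_control. The 3 libraries highest in that measure, grain_PHY 1, grain_control 1 and grain_control 4, were also the 3 with the fewest reads. The tissue label was set against the 16 keratinocyte markers that were found. None was at 0 in any group, and 7 fell and 2 rose on grain. Not being at 0 does not mark the tissue, since none of the 144 olfactory receptor genes was at 0 in grain_PHY or grain_control. KRT1, KRT4 and KRT10 had 8.45 CPM or less in every library. The summed level of the keratinocyte markers had a median of 15791 CPM in grain_PHY and 14193 in grain_control, against 25380 in forage_PHY and 24954 in forage_control. Of 10 smooth muscle markers 1 fell and 1 rose, of 8 T cell markers 0 fell and 2 rose, and of 8 red cell markers 0 fell and 4 rose. Among all genes tested 13.8% fell and 18.1% rose on grain, and at a mean log2 CPM of 2 or below 0.184% fell and 30.4% rose. Above a mean log2 CPM of 5, 49.2% fell and 1.02% rose. The keratinocyte markers KRT5, KRT14, DSP and TP63 lay at that higher level, with 127 CPM or more in every library. In whole papillae, fewer cells of a type and less RNA per cell cannot be told apart.

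Genes of every role except the peroxisomal one fell on grain, although 20 of the 38 did not pass the test. Over both arms 17 of the 38 genes fell and 1 rose at an adjusted p under 0.05 (edgeR quasi-likelihood test, Benjamini-Hochberg over all genes tested), and 30 of the 38 estimates were negative. Of all 22202 genes tested, 13.8% fell and 18.1% rose. The median log2 fold change, grain over forage, was −0.48 over the 38 genes and 0.20 over all genes tested. Above a mean log2 CPM of 5 that median was −0.57 over the 18 genes of the set there and −0.50 over all genes. There 12 of the 18 fell, against 49.2% of all genes. At 2 or below the median was 1.26 over all 10885 genes, and only 3 genes of the set lay there. DESeq2 called 21 of the 38 (19 lower and 2 higher), against 13.8% lower and 28.1% higher of all genes. With sample quality weights limma voom called 25 (23 lower and 2 higher), against 19.7% lower and 25.9% higher of all genes. A stricter filter, a mean of at least 5 CPM in a group, left 6 calls in edgeR (5 lower and 1 higher; 5.21% lower and 11.9% higher of all genes). Thinning every library to the lowest total left 9 (8 lower and 1 higher; 8.91% lower and 16.2% higher of all genes). With log2 olfactory receptor CPM as a covariate edgeR called 0 of the 38 and 0 of all genes, with 2 of the 38 at an unadjusted p under 0.05, against 4.65% of all genes, and a median of 0.00. Leaving out the 3 libraries with the most olfactory receptor CPM also left 0 of the 38 called, with 11 at an unadjusted p under 0.05, against 19.3% of all genes, and a median of −0.25. The count depended on single libraries. It was 0 without grain_PHY 1, with 18 of the 38 at an unadjusted p under 0.05 against 35.7% of all genes, and edgeR then called 1 gene of all those tested. It was 6 without forage_PHY 1 (9.27% of all genes called), 7 without forage_PHY 2 (12.3%), 8 without grain_control 1 (13.4%), 9 without grain_control 4 (16.4%), 10 without forage_control 4 (20.2%) and 10 without forage_control 5 (19.3%). How far read depth or the olfactory receptor reads account for these calls was not tested.

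**Figure D1:**
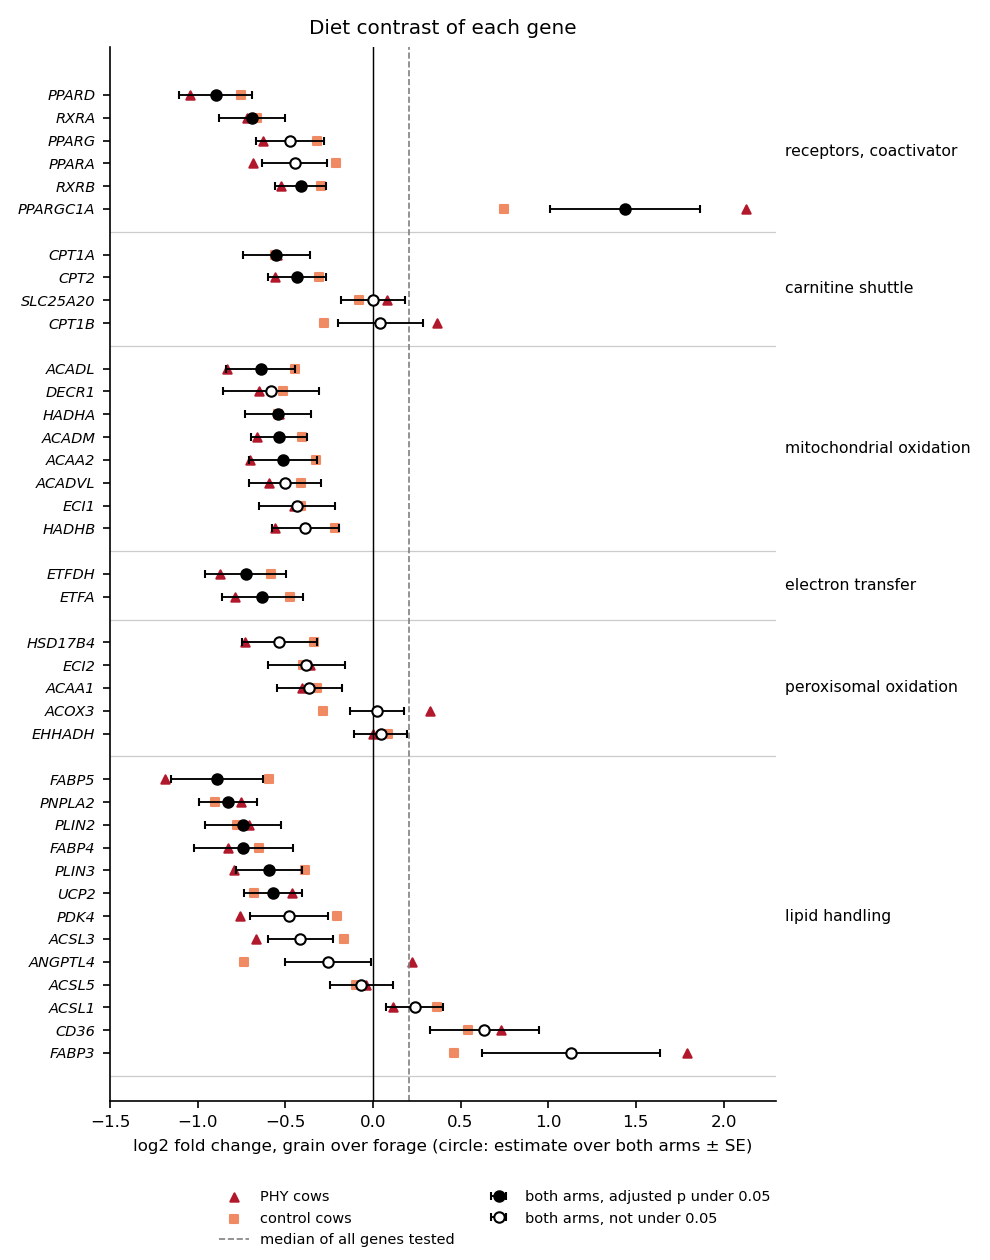
Log2 fold change of grain over forage (x axis) for each of the 38 genes, by role, with circles for the estimate over both arms ± SE, filled where the adjusted p was under 0.05, triangles for PHY cows and squares for control cows. The 17 filled circles left of 0 are spread over every role except the peroxisomal one, and PPARGC1A at 1.44 is the filled circle on the right.

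Among the nuclear receptors PPARD, RXRA and RXRB fell on grain, while the PPAR coactivator PPARGC1A rose. PPARD (ENSBTAG00000017542), the PPAR subtype found in most tissues and in stratified epithelia, had 30.2, 51.8, 68.4 and 74.4 CPM in grain_PHY libraries and 38.4, 59.4, 63.9, 57.5 and 116 CPM in grain_control libraries. It had 127, 120.1, 115 and 101 CPM in forage_PHY and 124, 86.5, 87.9, 132 and 136 CPM in forage_control. Of the 9 grain libraries only grain_control 5 reached into the forage range. CPM of single genes use the effective, TMM-scaled library size. The log2 fold change was −0.90 ± 0.21 (SE; edgeR adjusted p = 0.0202).

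RXRA (ENSBTAG00000017851), a retinoid X receptor that pairs with all PPARs, had 42.5, 55.7, 79.6 and 76.3 CPM in grain_PHY and 40.3, 68.3, 67.2, 58.5 and 94.3 CPM in grain_control, against 104, 113, 107 and 93.6 CPM in forage_PHY and 89.6, 91.4, 68.3, 133 and 139 CPM in forage_control. The diets overlapped, with forage_control 3 as the lowest forage library. Its log2 fold change was −0.69 ± 0.19 (edgeR adjusted p = 0.0217). RXRB, its close relative, averaged 18.5 ± 4.102 CPM on grain and 24.6 ± 2.52 CPM on forage (SD, n = 9 each) and fell by less (−0.41 ± 0.14, edgeR adjusted p = 0.0366).

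PPARG (ENSBTAG00000001333), known as the regulator of fat cell differentiation and also present in epithelia, had 48.6, 83.8, 87.8 and 104 CPM in grain_PHY and 54.2, 80.8, 94.98, 103 and 129 CPM in grain_control. It had 119, 135, 140.2 and 105 CPM in forage_PHY and 129, 73.9, 96.1, 125 and 152 CPM in forage_control. The diets did not overlap in PHY cows and overlapped over most of their range in control cows. The log2 fold change was −0.47 ± 0.19, which did not pass in edgeR (adjusted p = 0.0598) and passed in DESeq2 (−0.39, adjusted p = 0.0461) and in limma voom (−0.44, adjusted p = 0.0169). PPARA (ENSBTAG00000008063), the subtype known for driving liver fatty acid oxidation, averaged 14.2 ± 4.14 CPM on grain and 19.2 ± 5.54 CPM on forage (n = 9 each; −0.45 ± 0.19, edgeR adjusted p = 0.0627).

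PPARGC1A (ENSBTAG00000017024), a coactivator of PPARs and of mitochondrial biogenesis, went the other way at a low level of 17 to 122 reads per library. It had 11.8, 8.63, 4.21 and 2.85 CPM in grain_PHY and 10.3, 3.13, 3.96, 7.404 and 2.804 CPM in grain_control, against 1.24, 0.623, 1.88 and 2.63 CPM in forage_PHY and 2.19, 7.29, 5.1997, 0.695 and 0.969 CPM in forage_control. Its highest libraries were grain_PHY 1 and grain_control 1, and the highest forage libraries, forage_control 2 and 3, were also the forage libraries highest in olfactory receptor CPM. The log2 fold change was 1.44 ± 0.43 (edgeR adjusted p = 0.0246), and with the olfactory receptor covariate it stood at 0.031. PPARGC1A is known to be abundant in muscle, and 8 of 11 skeletal muscle markers rose and 0 fell. Among all genes tested 18.1% rose and 13.8% fell, and at a mean log2 CPM of 2 or below 30.4% rose and 0.184% fell. The summed level of the muscle markers was 24.1 to 98.0 CPM in grain_PHY and 17.6 to 100.2 in grain_control, against 10.1 to 17.4 in forage_PHY and 6.49 to 39.1 in forage_control. None of these markers was at 0 in a group. Their part in the result was not tested.

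Without grain_PHY 1 none of the receptor genes passed (PPARD −0.76, edgeR adjusted p = 0.0616; RXRA −0.57, 0.0634). PPARD and RXRA passed without any one of the other 17 libraries. PPARGC1A also failed without forage_PHY 1, forage_PHY 2 or grain_control 1 (largest adjusted p 0.0742). RXRB failed in 12 of the 18 fits without 1 library and held without forage_control 2 or 3, grain_control 3 or 5, or grain_PHY 2 or 4 (largest adjusted p 0.12). RXRB also failed with the stricter filter (−0.12, edgeR adjusted p = 0.324) and after thinning (−0.25, 0.129), where the other called receptor genes passed. With the covariate PPARD was at −0.29, RXRA at −0.17 and RXRB at −0.066, and without the 3 libraries highest in olfactory receptor CPM at −0.63, −0.46 and −0.21.

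**Figure D2:**
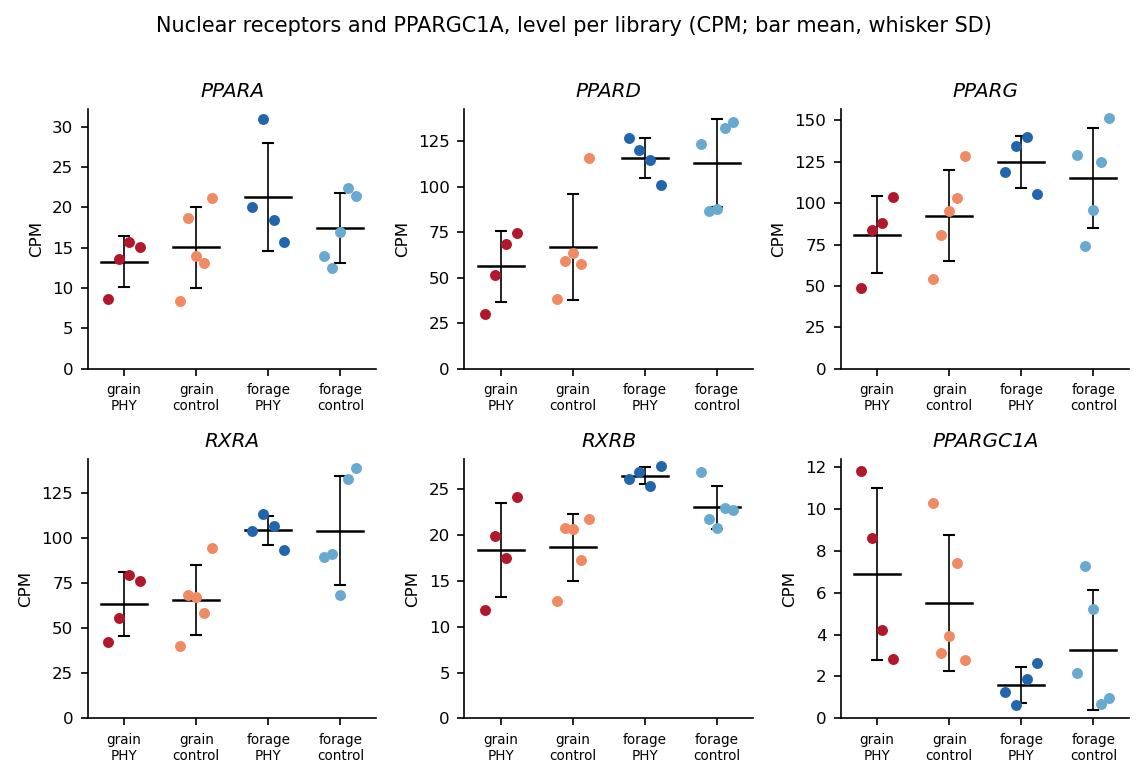
Level in CPM (y axis, from 0) of PPARA, PPARD, PPARG, RXRA, RXRB and PPARGC1A in each library of grain_PHY, grain_control, forage_PHY and forage_control, with the mean as a bar and the SD as a whisker. PPARD lies between 30.2 and 116 CPM in grain libraries and between 86.5 and 136 CPM in forage libraries, and PPARGC1A shows the opposite order of means.

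Of the 4 genes of the carnitine shuttle, which carries long-chain fatty acids into mitochondria, 2 fell, against 13.8% of all genes tested. All 4 stood inside the usual range of genes of like level. Among all genes within the same step of 1 in mean log2 CPM, CPT1A was at the 28.7 percentile and CPT2 at 39.1. SLC25A20 was at 43.4 and CPT1B at 47.7. The median of the step was −0.46 for CPT1A, −0.37 for CPT2 and 0.07 for SLC25A20 and CPT1B. CPT1A (ENSBTAG00000021999), the outer membrane enzyme that commits fatty acids to oxidation and is known as a PPAR target, had 32.9, 42.3, 23.02 and 42.1 CPM in grain_PHY and 26.8, 56.5, 28.6, 23.2 and 51.04 CPM in grain_control. It had 56.5, 52.6, 39.4 and 56.3 CPM in forage_PHY and 50.1, 59.7, 38.3, 71.6 and 54.5 CPM in forage_control. The diets overlapped in both arms, and the log2 fold change was −0.55 ± 0.19 (edgeR adjusted p = 0.0357). CPT2, the inner membrane enzyme that releases the acyl-CoA again, averaged 21.8 ± 5.86 CPM on grain and 29.1 ± 5.86 CPM on forage (n = 9 each; −0.43 ± 0.17, edgeR adjusted p = 0.0487). The carrier SLC25A20, which exchanges acylcarnitine for carnitine across the inner membrane, averaged 6.51 ± 1.62 CPM on grain and 6.53 ± 0.809 CPM on forage, a log2 difference of 0.00022 ± 0.18. CPT1B, the isoform known from muscle, averaged 4.601 ± 1.697 CPM on grain and 4.47 ± 1.39 CPM on forage (0.042 ± 0.24). CPT1A lost its call without forage_control 4 or 5, forage_PHY 1, 2 or 4, grain_control 1, 3 or 4, or grain_PHY 1 or 3 (largest adjusted p 0.0898). CPT2 lost it without any library except forage_control 2 or 3, forage_PHY 4, or grain_control 2 or 5 (largest adjusted p 0.14). Both failed with the stricter filter and after thinning: CPT1A (−0.25, edgeR adjusted p = 0.258; −0.35, 0.105) and CPT2 (−0.12, 0.415; −0.21, 0.229). CPT2 further failed in DESeq2 (−0.35, 0.054), with DESeq2's size factors (−0.35, 0.065) and with no filter (−0.45, 0.0534). With the olfactory receptor covariate CPT1A was at −0.20 and CPT2 at 0.021.

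All 8 enzymes of the mitochondrial spiral had negative estimates on grain, between −0.64 and −0.39, and 4 of them fell. These were 2 acyl-CoA dehydrogenases, ACADM for medium and ACADL for long chains, the trifunctional protein subunit HADHA, and the thiolase ACAA2. Of all genes tested 13.8% fell. ACADL and ECI1 had a mean log2 CPM between 2 and 5, where 19.1% of all genes fell, with a median of −0.23. The other enzymes of the spiral lay above 5, where 49.2% of all genes fell, with a median of −0.50. ACADM (ENSBTAG00000024240) had 16.2, 28.8, 28.7 and 30.1 CPM in grain_PHY and 31.7, 36.5, 31.2, 28.2 and 42.6 CPM in grain_control, against 43.8, 44.1, 42.9 and 33.7 CPM in forage_PHY and 39.99, 31.7, 41.5, 64.3 and 47.8 CPM in forage_control. In PHY cows the diets did not overlap, and in control cows they did. Over both arms the estimate was −0.53 ± 0.16 (edgeR adjusted p = 0.0248).

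ACADL (ENSBTAG00000010579) had 7.799, 6.77, 10.9 and 12.5 CPM in grain_PHY and 6.65, 21.5, 13.8, 10.4 and 12.8 CPM in grain_control. On forage it had 13.3, 18.6, 14.7 and 21.2 CPM in PHY cows and 16.6, 18.5, 13.4, 26.9 and 14.02 CPM in control cows. Of the grain libraries grain_control 2 and 3 reached into the forage range, and the log2 fold change was −0.64 ± 0.20 (edgeR adjusted p = 0.0257). HADHA averaged 64.1 ± 18.5 CPM on grain and 93.3 ± 17.7 CPM on forage (n = 9 each; −0.54 ± 0.19, edgeR adjusted p = 0.0369). ACAA2, which splits off acetyl-CoA in the last step, averaged 191 ± 55.7 CPM on grain and 268 ± 48.3 CPM on forage (−0.51 ± 0.20, edgeR adjusted p = 0.047).

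The other 4 enzymes of the spiral did not pass in edgeR. ACADVL, the dehydrogenase for very long chains, averaged 118 ± 39.5 CPM on grain and 166 ± 30.2 CPM on forage (n = 9 each; −0.50 ± 0.21, edgeR adjusted p = 0.061). It passed in DESeq2 (−0.43, adjusted p = 0.0398) and in limma voom (−0.54, 0.00745). The second trifunctional subunit HADHB averaged 52.5 ± 16.2 CPM on grain and 67.9 ± 11.3 CPM on forage (−0.39 ± 0.19, edgeR adjusted p = 0.105) and passed in limma voom (−0.37, 0.0383). ECI1 and DECR1 are helper enzymes that shift or remove the double bonds of unsaturated chains. ECI1 averaged 10.9 ± 4.45 CPM on grain and 14.7 ± 2.59 CPM on forage (−0.43 ± 0.22, edgeR adjusted p = 0.109). DECR1 averaged 59.6 ± 28.5 CPM on grain and 88.6 ± 34.3 CPM on forage (−0.58 ± 0.27, edgeR adjusted p = 0.0893). HADHA and HADHB code for the subunits of 1 complex, and their estimates ± SE overlapped. ACADM failed without forage_PHY 1, forage_PHY 2 or grain_PHY 1 (largest adjusted p 0.073), and ACADL without forage_PHY 2 or grain_PHY 1 (0.0786). HADHA failed without forage_control 1, 4 or 5, forage_PHY 1, 2 or 3, grain_control 1, 2 or 4, or grain_PHY 1 (largest 0.106). ACAA2 kept its call in 4 of the 18 fits without 1 library, those without forage_control 2, forage_control 3, grain_control 5 or grain_PHY 4 (largest 0.122). With the stricter filter and after thinning 3 of the 4 failed, ACADM (−0.22, edgeR adjusted p = 0.12; −0.33, 0.0824), HADHA (−0.25, 0.101; −0.35, 0.0854) and ACAA2 (−0.22, 0.16; −0.37, 0.0705). ACADL failed with the stricter filter (−0.35, 0.149). ACAA2 further failed with DESeq2's size factors (−0.44, 0.0546) and with no filter (−0.53, 0.0565). With the olfactory receptor covariate ACADM stood at −0.12 and ACADL at −0.24, and HADHA and ACAA2 changed sign, to 0.056 and 0.013.

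Both measured genes of electron transfer fell, against 13.8% of all genes tested. Each lay above a mean log2 CPM of 5, where 49.2% of all genes fell. ETFDH (ENSBTAG00000016679), the membrane oxidoreductase that hands the electrons of acyl-CoA dehydrogenation to ubiquinone, had 42.6, 69.2, 96.4 and 104 CPM in grain_PHY and 57.1, 118, 65.5, 70.7 and 140.4 CPM in grain_control. It had 141, 137, 153 and 141 CPM in forage_PHY and 97.1, 112, 71.5, 204 and 192 CPM in forage_control. The libraries forage_control 1, 2 and 3 and forage_PHY 2 lay inside the grain range, and forage_control 4 was the highest of all. In PHY cows alone the diets did not overlap. Over both arms the change was −0.73 ± 0.23 (edgeR adjusted p = 0.0286). ETFA, the alpha subunit of the flavoprotein itself, averaged 65.4 ± 30.3 CPM on grain and 99.2 ± 24.3 CPM on forage (n = 9 each; −0.63 ± 0.23, edgeR adjusted p = 0.0434). ETFDH failed without forage_control 4 or 5, forage_PHY 1 or 2, grain_control 1 or 4, or grain_PHY 1 (largest adjusted p 0.0833). ETFA held in 6 such fits, without forage_control 2 or 3, grain_control 2 or 5, or grain_PHY 3 or 4, and failed in the other 12 (largest 0.126). With the stricter filter and after thinning ETFA (−0.35, edgeR adjusted p = 0.134; −0.42, 0.113) failed, as it did with DESeq2's size factors (−0.55, 0.0521), and ETFDH failed with the stricter filter (−0.44, 0.0692). With the olfactory receptor covariate ETFDH stood at −0.042 and ETFA at 0.12.

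None of the 5 peroxisomal genes passed in edgeR, where 13.8% of all genes tested fell and 18.1% rose. An unadjusted p under 0.05 was found for 1 of the 5, against 50.3% of all genes. DESeq2 called 1 of the 5, HSD17B4 (−0.46, adjusted p = 0.0488), against 13.8% lower and 28.1% higher of all genes. With limma voom 2 were called, HSD17B4 (−0.41, adjusted p = 0.0351) and ACAA1 (−0.41, 0.0266), against 19.7% lower and 25.9% higher of all genes. HSD17B4 (ENSBTAG00000006978), the bifunctional enzyme that handles branched and very long chains, came closest in edgeR. It had 21.01, 45.2, 67.6 and 69.3 CPM in grain_PHY and 37.96, 75.7, 55.4, 48.02 and 78.7 CPM in grain_control, against 81.2, 84.8, 89.3 and 81.98 CPM in forage_PHY and 66.5, 60.5, 47.9, 108 and 90.7 CPM in forage_control. In PHY cows no grain library reached the forage range, and in control cows the ranges overlapped (−0.53 ± 0.21 over both arms, edgeR adjusted p = 0.0558). The thiolase ACAA1 averaged 24.9 ± 7.98 CPM on grain and 31.9 ± 4.67 CPM on forage (n = 9 each; −0.36 ± 0.19, edgeR adjusted p = 0.118). The isomerase ECI2, which is also found in mitochondria, averaged 9.08 ± 3.35 CPM on grain and 11.9 ± 3.23 CPM on forage (−0.38 ± 0.22, edgeR adjusted p = 0.154).

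ACOX3, an oxidase of branched chains, averaged 14.9 ± 3.001 CPM on grain and 14.98 ± 3.52 CPM on forage (n = 9 each; 0.021 ± 0.15, edgeR adjusted p = 0.915). EHHADH, the other bifunctional enzyme and a known PPARA target in rodent liver, averaged 11.2 ± 1.95 CPM on grain and 10.8 ± 2.198 CPM on forage (0.043 ± 0.15, edgeR adjusted p = 0.817). Both estimates were less than 1 SE from 0. ACOX3 had 15.3, 17.997, 17.6 and 17.6 CPM in grain_PHY and 8.34, 15.5, 14.8, 13.3 and 13.4 CPM in grain_control, and 9.35, 12.996, 18.5 and 13.8 CPM in forage_PHY and 12.3, 14.9, 21.4, 15.7 and 15.7 CPM in forage_control. Its estimate was 0.33 ± 0.23 in PHY cows and −0.28 ± 0.21 in control cows, and the first minus the second, 0.61 ± 0.31, did not pass (edgeR adjusted p = 0.954).

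Mitochondrial against peroxisomal oxidation differed in the count of edgeR calls, 8 of 14 mitochondrial genes (shuttle, spiral and electron transfer) lower against 0 of 5 peroxisomal ones, with median log2 fold changes of −0.52 and −0.36. That difference was not tested. Among all genes tested 13.8% fell, with 49.2% lower above a mean log2 CPM of 5 and 19.1% lower between 2 and 5. The peroxisomal genes ACAA1, ACOX3, EHHADH and ECI2 lay between 2 and 5, and HSD17B4 lay above 5. CPT1B, CPT2, SLC25A20, ACADL and ECI1 lay between 2 and 5, and the other mitochondrial genes lay above 5. The part of level in the difference was not tested. The peroxisomal median was −0.20 without grain_PHY 1, −0.077 with the stricter filter and −0.049 after thinning. For each library the log2 level of every gene, log2(CPM + 1), was set against its mean in forage_control and averaged over the group of genes. The mitochondrial mean lay between −1.11 and −0.13 in grain_PHY and between −0.82 and 0.03 in grain_control, against −0.03 to 0.10 in forage_PHY and −0.32 to 0.41 in forage_control. The peroxisomal mean lay between −0.70 and −0.05 in grain_PHY and between −0.57 and 0.05 in grain_control, against −0.20 to 0.16 in forage_PHY and −0.24 to 0.16 in forage_control. The lowest libraries for both were grain_PHY 1 and grain_control 1. The mitochondrial mean minus the peroxisomal mean averaged −0.18 ± 0.15 on grain and 0.04 ± 0.19 on forage (SD, n = 9 each), and 2 of 9 grain libraries were below the lowest forage library. With the olfactory receptor covariate the medians were 0.02 for the mitochondrial and 0.10 for the peroxisomal genes.

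**Figure D3:**
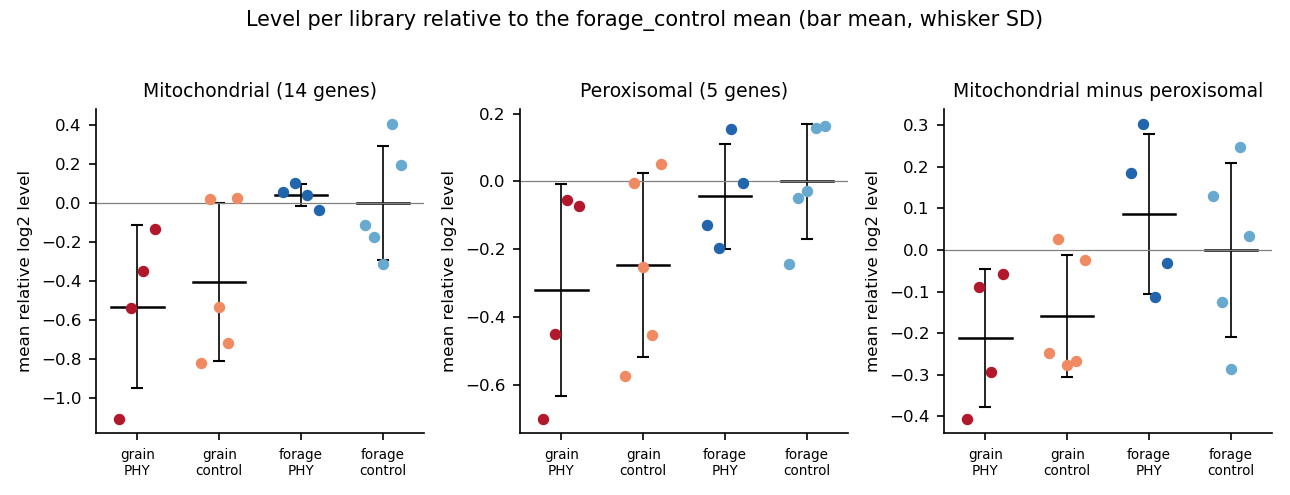
Mean log2 level per library relative to the forage_control mean (y axis) of 14 mitochondrial genes, of 5 peroxisomal genes, and of the difference between them, in the 4 groups, with the group mean as a bar and the SD as a whisker. Both groups of genes are lowest in grain_PHY 1, at −1.11 and −0.70, and their difference overlaps between the diets.

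Of the 13 lipid-handling genes 6 fell and 0 rose, against 13.8% and 18.1% of all genes tested. Of those that fell, PLIN2, PLIN3, FABP4 and FABP5 lay above a mean log2 CPM of 5, where 49.2% of all genes fell. The others, PNPLA2 and UCP2, lay between 2 and 5, where 19.1% of all genes fell. PNPLA2 (ENSBTAG00000005144), the lipase that opens triglyceride breakdown in lipid droplets, had the smallest p of the whole set. It had 8.67, 20.4, 13.4 and 14.6 CPM in grain_PHY and 7.13, 10.9, 10.4, 13.6 and 14.8 CPM in grain_control, against 24.6, 27.4, 21.7 and 22.5 CPM in forage_PHY and 19.2, 17.03, 20.5, 27.03 and 22.7 CPM in forage_control. Within each arm every grain library was below every forage library, and across arms only grain_PHY 2 reached the forage range. The log2 fold change was −0.83 ± 0.16 (edgeR adjusted p = 0.0201). With the olfactory receptor covariate it was −0.46, and without the 3 libraries highest in that measure −0.66 (edgeR adjusted p = 0.167).

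PLIN2 (ENSBTAG00000005718) and PLIN3 (ENSBTAG00000011805) coat lipid droplets, and both fell. PLIN2 had 20.04, 55.1, 51.99 and 65.3 CPM in grain_PHY and 29.9, 67.9, 50.9, 34.7 and 77.96 CPM in grain_control. It had 77.6, 74.4, 61.7 and 100.3 CPM in forage_PHY and 92.05, 74.9, 82.5, 113 and 86.7 CPM in forage_control. The ranges overlapped in both arms, with grain_PHY 1 lowest, and the log2 fold change was −0.74 ± 0.21 (edgeR adjusted p = 0.0229). PLIN3 averaged 34.4 ± 11.6 CPM on grain and 50.6 ± 11.6 CPM on forage (n = 9 each; −0.59 ± 0.19, edgeR adjusted p = 0.0286).

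The fatty acid-binding proteins FABP4 and FABP5 carry fatty acids inside the cell, FABP5 being the form known from keratinocytes and FABP4 the form known from fat cells, macrophages and capillaries. FABP5 (ENSBTAG00000047330) had 295, 509, 585 and 662 CPM in grain_PHY and 282, 789, 556, 548 and 1015 CPM in grain_control. It had 1386, 1221, 1224 and 835 CPM in forage_PHY and 903, 672, 480.4, 1304 and 1451 CPM in forage_control. All grain_PHY libraries were below all forage_PHY libraries, while the control cows overlapped. Over both arms the change was −0.89 ± 0.26 (edgeR adjusted p = 0.0236).

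FABP4 (ENSBTAG00000037526) had 62.3, 114, 152 and 212 CPM in grain_PHY and 125, 59.2, 228, 73.5 and 216 CPM in grain_control, against 219.9, 304, 199 and 235 CPM in forage_PHY and 225, 119.8, 164, 192 and 403 CPM in forage_control. In control cows the diets overlapped widely, and in PHY cows only grain_PHY 4 reached the forage_PHY range. The log2 fold change of −0.74 ± 0.28 over both arms passed (edgeR adjusted p = 0.048). For the marker counts that follow, 18.1% of all genes tested were higher on grain and 13.8% lower. At a mean log2 CPM of 2 or below 30.4% were higher and 0.184% lower. Of 10 tested fat cell markers 3 were higher and 0 lower, and their summed level ran from 28.5 to 55.0 CPM in grain_PHY and 24.6 to 40.6 in grain_control, against 17.8 to 26.03 in forage_PHY and 21.4 to 37.8 in forage_control. None of 11 listed fat cell markers was at 0 in a whole group. Of 14 endothelial markers 0 were called, with summed levels of 212.9 to 297.6 CPM in grain_PHY and 228.9 to 412.0 in grain_control, against 272.1 to 378.7 in forage_PHY and 205.9 to 461.5 in forage_control. Of 14 myeloid markers 6 were higher and 0 lower, with summed levels of 74.5 to 99.9 CPM in grain_PHY and 62.8 to 98.2 in grain_control, against 50.3 to 75.6 in forage_PHY and 49.0 to 71.2 in forage_control. Their part in the result was not tested. FABP3, the form known from heart muscle, had 4 to 25 reads per library and stood at 1.13 ± 0.51 (edgeR adjusted p = 0.0795), and DESeq2 called it (1.22, adjusted p = 0.0254).

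UCP2 (ENSBTAG00000003692), an inner mitochondrial membrane carrier and a known PPAR target, had 9.86, 6.77, 9.26 and 13.1 CPM in grain_PHY and 6.17, 7.03, 6.53, 8.43 and 9.81 CPM in grain_control. It had 14.4, 15.5, 12.2 and 11.5 CPM in forage_PHY and 14.7, 9.02, 8.5995, 13.3 and 15.3 CPM in forage_control. The diets overlapped in both arms, with forage_control 2 and 3 low, and the log2 fold change was −0.57 ± 0.16 (edgeR adjusted p = 0.0229). The established PPAR targets PDK4 and ANGPTL4 did not pass. PDK4, a kinase that holds back pyruvate oxidation, averaged 5.73 ± 1.596 CPM on grain and 7.797 ± 2.64 CPM on forage (n = 9 each; −0.48 ± 0.22, edgeR adjusted p = 0.0862).

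ANGPTL4 (ENSBTAG00000002473), a secreted inhibitor of lipoprotein lipase, had 16 to 161 reads per library. It had 4.01, 2.23, 4.51 and 8.06 CPM in grain_PHY and 1.93, 2.43, 2.92, 1.91 and 2.57 CPM in grain_control, against 3.26, 5.02, 3.88 and 3.95 CPM in forage_PHY and 4.45, 3.77, 3.93, 3.15 and 4.39 CPM in forage_control. Every grain_control library was below every forage_control library, whereas grain_PHY libraries lay below, within and above the forage_PHY range. The estimates were −0.26 ± 0.25 over both arms, 0.22 ± 0.37 in PHY cows and −0.73 ± 0.33 in control cows, with edgeR adjusted p of 0.387, 0.636 and 0.432. On grain it was at 0.99 ± 0.35 in PHY over control cows, the only gene of the set with an unadjusted p under 0.05 between arms (edgeR adjusted p = 0.999).

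The fatty acid importer CD36 averaged 4.48 ± 1.68 CPM on grain and 2.91 ± 1.41 CPM on forage (n = 9 each; 0.64 ± 0.31, edgeR adjusted p = 0.102), and limma voom called it (0.77, adjusted p = 0.019). The acyl-CoA synthetases activate fatty acids, and none of the 3 passed in edgeR. ACSL3 averaged 63.98 ± 18.2 CPM on grain and 83.8 ± 18.6 CPM on forage (−0.41 ± 0.19, edgeR adjusted p = 0.079), with all grain_PHY libraries below all forage_PHY libraries, and limma voom called it (−0.34, 0.0454). ACSL1 averaged 12.6 ± 2.34 CPM on grain and 10.7 ± 2.62 CPM on forage (0.24 ± 0.16, edgeR adjusted p = 0.223). ACSL5 averaged 8.53 ± 1.44 CPM on grain and 8.97 ± 2.63 CPM on forage (−0.066 ± 0.18, edgeR adjusted p = 0.768).

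Without grain_PHY 1 none of the lipid-handling genes passed (PNPLA2 −0.70, edgeR adjusted p = 0.0616; PLIN2 −0.58, 0.0661; UCP2 −0.54, 0.0641; FABP5 −0.75, 0.0673). PNPLA2, PLIN2 and UCP2 passed without any one of the other 17 libraries. FABP5 also failed without forage_PHY 1, and PLIN3 without forage_PHY 1, grain_control 1 or grain_control 4 (largest adjusted p 0.0873). FABP4 passed in 5 of the 18 fits without 1 library, those without forage_control 2, forage_control 3, grain_control 3, grain_control 5 or grain_PHY 4 (largest 0.129). With the stricter filter and after thinning UCP2 (−0.24, edgeR adjusted p = 0.234; −0.20, 0.417) and FABP4 (−0.45, 0.201; −0.57, 0.0892) failed. FABP4 further failed with DESeq2's size factors (−0.66, 0.0592) and PLIN3 with the stricter filter (−0.30, 0.101), while PNPLA2, PLIN2 and FABP5 passed under these settings. With the olfactory receptor covariate PLIN2 stood at −0.085, PLIN3 at −0.015, FABP5 at −0.11, UCP2 at −0.30 and FABP4 at 0.043.

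**Figure D4:**
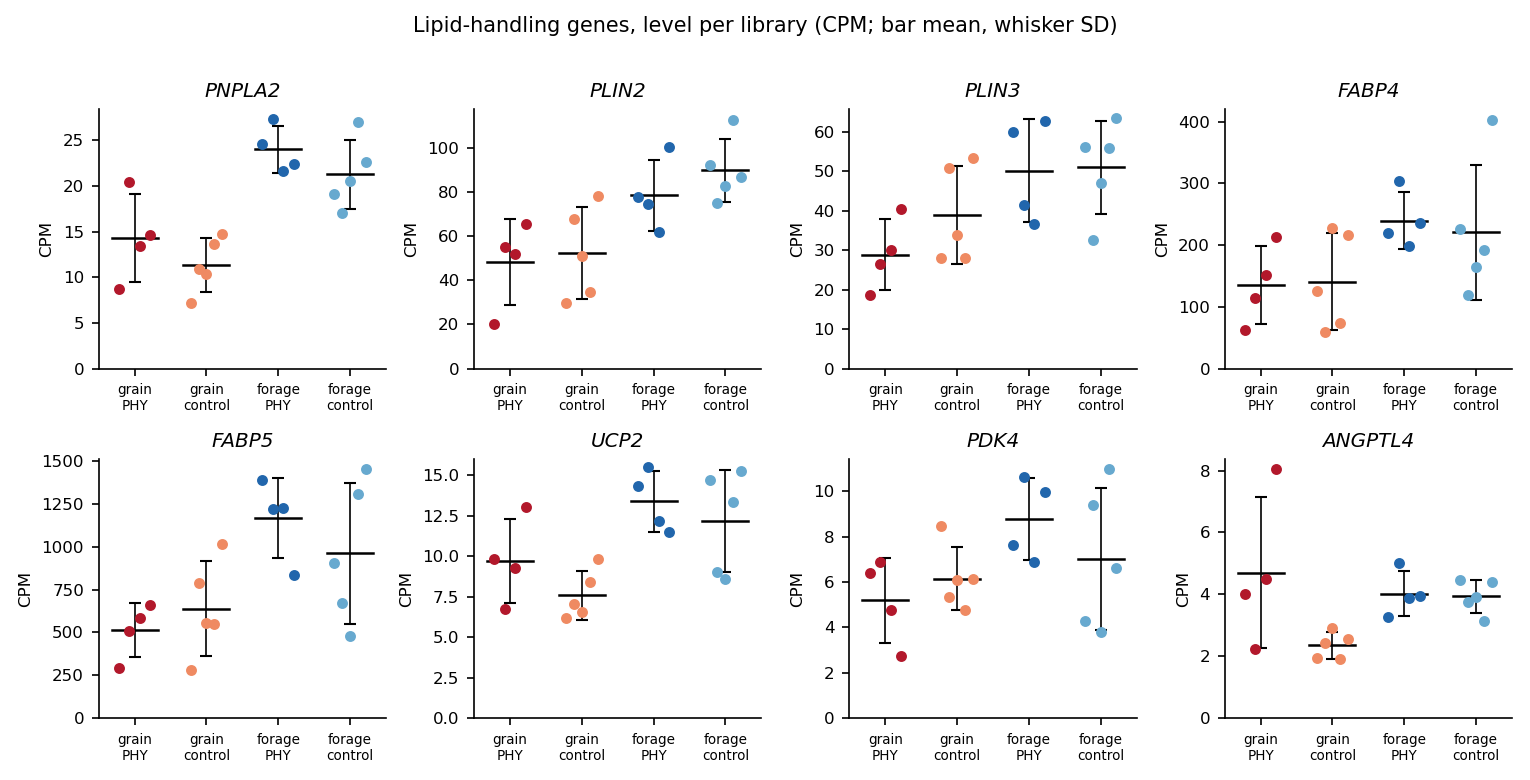
Level in CPM (y axis, from 0) of PNPLA2, PLIN2, PLIN3, FABP4, FABP5, UCP2, PDK4 and ANGPTL4 in each library of the 4 groups, with the mean as a bar and the SD as a whisker. PNPLA2 separates the diets within each arm, and the 5 grain_control libraries of ANGPTL4, 1.91 to 2.92 CPM, lie below the 5 forage_control libraries.

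The direction of a gene on grain went with its level. Among all tested genes with a mean log2 CPM over 5, 49.2% fell and 1.02% rose, with a median log2 fold change of −0.50. Of the 18 genes of the set at that level 12 fell, or 66.7%, with a median of −0.57. Between 2 and 5, 19.1% of all genes fell and 8.21% rose, and of the 17 genes of the set 5 fell and 1, PPARGC1A, rose. At 2 or below 0.184% of all genes fell and 30.4% rose, and of the 3 genes of the set there, ANGPTL4, CD36 and FABP3, 0 were called.

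Set beside all genes in steps of 1 on the log2 CPM scale, 9 of the 38 lay below the 10th percentile of their step and 1, PPARGC1A, above the 90th. PPARD was at the 0.754 percentile (step median −0.52), PNPLA2 at the 1.63 percentile (step median −0.37) and FABP5 at the 2.22 percentile of the 45 genes of its step (median −0.63). ACADL (5.46), PLIN2 (7.29), PDK4 (7.4), ANGPTL4 (7.91), ETFDH (9.05) and UCP2 (9.05) made up the rest of the 9. Most genes of the mitochondrial spiral stood near the middle of their step, such as HADHA (45.2), ACAA2 (63.6) and ACADVL (66.1). PPARG (61.1) did so as well. These percentiles describe the same libraries and are not a test.

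**Figure D5:**
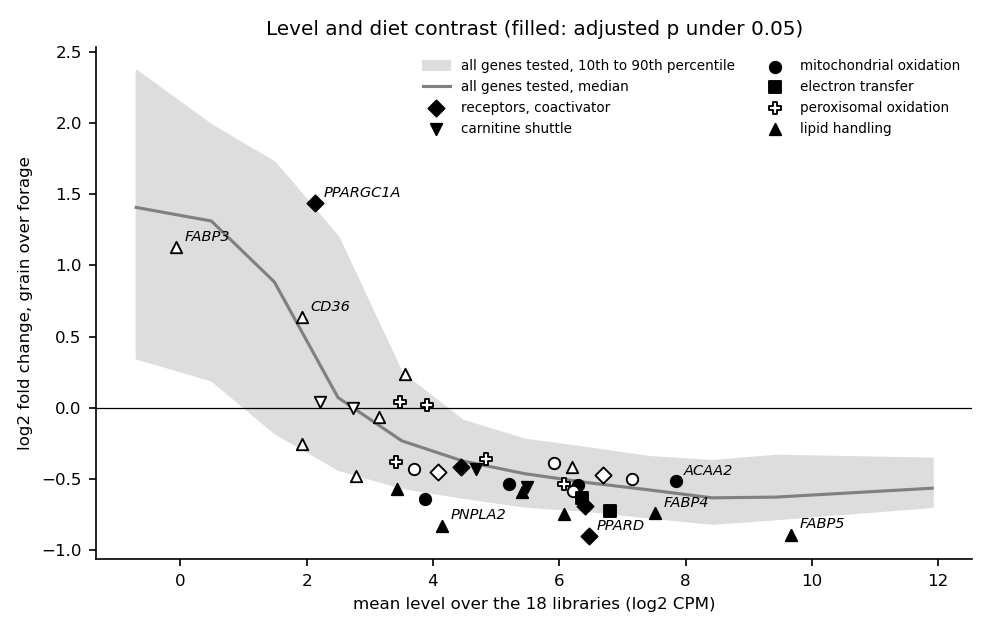
Log2 fold change of grain over forage (y axis) against the mean level over the 18 libraries in log2 CPM (x axis) for the 38 genes, by role and filled where called, over the median (line) and the 10th to 90th percentile (band) of all 22202 genes tested. The band runs from above 0 at low level to below 0 at high level, and PPARD, PNPLA2 and FABP5 lie under it.

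Within arms edgeR called 0 of the 38 genes and 0 of all genes, in PHY cows as in control cows, so that 0% was called in either direction. In PHY cows 20 of the 38 had an unadjusted p under 0.05, against 39.7% of all genes. There DESeq2 called 9 (7 lower and 2 higher), against 6.2% lower and 17.5% higher of all genes, and limma voom 20 (19 lower and 1 higher), against 15.4% and 20.2%. On the PHY groups alone edgeR called 5 (4 lower and 1 higher), against 6.18% lower and 17.9% higher of all genes. It called 2 without forage_control 5 (7.56% of all genes) and 4 without grain_control 1 (6.64%). PPARD was at −1.04 ± 0.31 and FABP5 at −1.19 ± 0.39 in PHY cows (edgeR adjusted p = 0.0696 and 0.0696). In control cows 8 of the 38 had an unadjusted p under 0.05, against 11.3% of all genes, and DESeq2 and limma voom called 0. PPARD was at −0.75 ± 0.27 and FABP5 at −0.59 ± 0.35 there, and PNPLA2 at −0.90 ± 0.22 (edgeR adjusted p = 0.432). Over both arms 0 of the 38 genes separated all grain from all forage libraries, against 0.153% of all genes lower and 0.054% higher. In PHY cows 17 of the 38 genes were lower and 1 higher in every grain than in every forage library, against 15.8% and 14.2% of all genes. In control cows these were PNPLA2 and ANGPTL4, both lower, against 0.86% of all genes lower and 0.491% higher. Total reads and olfactory receptor CPM also did not overlap between grain_PHY and forage_PHY libraries, and both overlapped between the control groups. Their part in the separation was not tested.

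PHY and control cows did not differ in any gene of the set at an adjusted p under 0.05, on grain or on forage, by edgeR, DESeq2 or limma voom. On grain the median log2 difference, PHY over control, was −0.09 over the 38 genes and 0.01 over all genes, with 1 of the 38 (ANGPTL4) at an unadjusted p under 0.05 against 2.57% of all genes. On forage it was 0.02 over the 38 genes and −0.02 over all, with 0 of 38 at an unadjusted p under 0.05 against 1.6% of all genes. PPARG was at −0.19 ± 0.27 on grain and 0.12 ± 0.27 on forage, PPARD at −0.26 ± 0.29 and 0.032 ± 0.29, and PPARGC1A at 0.33 ± 0.59 and −1.05 ± 0.61. The diet response of PHY cows minus that of control cows was not called for any of the 38 by the same 3 tools (0 at an unadjusted edgeR p under 0.05, against 1.99% of all genes). It was −0.29 ± 0.41 for PPARD, 1.38 ± 0.85 for PPARGC1A, −0.59 ± 0.52 for FABP5 and 0.15 ± 0.33 for PNPLA2. The standard errors of this difference ran from 0.29 to 1.01 over the 38 genes.

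Other genes of the pathway were taken from lists by function. For comparison, 13.8% of all genes tested fell and 18.1% rose over both arms. By level, 49.2% fell and 1.02% rose above a mean log2 CPM of 5, with a median of −0.50. Between 2 and 5, 19.1% fell and 8.21% rose, with a median of −0.23. Of 30 other genes listed under mitochondrial oxidation, by function and not by the place of each protein, 14 fell and 1 rose (median −0.45). ACADSB, for short branched chains, averaged 188 ± 87.96 CPM on grain and 335 ± 122 CPM on forage (n = 9 each; −0.85 ± 0.28), and the thioesterase ACOT2 stood at −0.85 ± 0.21 (edgeR adjusted p = 0.0303 and 0.0202). CPT1C, a carnitine transferase relative of low level, rose (1.01 ± 0.34). Of 46 other peroxisomal genes 12 fell and 0 rose (median −0.37). The largest falls were in the carbonyl reductase DHRS4 (−0.88 ± 0.19), the membrane-shaping PEX11G (−0.73 ± 0.17) and the carnitine octanoyltransferase CROT (−0.68 ± 0.19), with edgeR adjusted p of 0.0201, 0.0202 and 0.0227.

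Of 32 other regulators 10 fell and 4 rose (median −0.40), the largest changes being rises of ESRRB (1.85 ± 0.50), HNF4A (1.53 ± 0.56) and RXRG (1.34 ± 0.51), each below 4 CPM on average in both diets. RXRG, the third RXR, averaged 3.42 ± 2.18 CPM on grain and 1.38 ± 1.003 CPM on forage (n = 9 each; edgeR adjusted p = 0.0476). PPARGC1B, a relative of PPARGC1A at a higher level, fell where PPARGC1A rose. It averaged 103 ± 36.4 CPM on grain and 176 ± 25.2 CPM on forage (n = 9 each; −0.79 ± 0.22, edgeR adjusted p = 0.0218). Of 41 other lipid-handling genes 6 fell and 11 rose (median 0.60), among them the droplet protein PLIN5 (2.54 ± 0.71), FABP12 (2.34 ± 0.74) and the hormone FGF21 (2.06 ± 0.72), each below 3 CPM on average in both diets. Among all genes tested 13.8% fell and 18.1% rose, and at a mean log2 CPM of 2 or below 0.184% fell and 30.4% rose. Between 2 and 5, 19.1% fell and 8.21% rose, and above 5, 49.2% fell and 1.02% rose. CPT1C stands in both the mitochondrial and the lipid-handling list. Without grain_PHY 1 edgeR called 1 gene of all those tested, and with the olfactory receptor covariate 0.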

How the data were processed

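Raw read counts per gene, as deposited by the authors, were used for 18 libraries, 10 ng of RNA each per the labels' protocols. Per the submitters' processing notes, bcl2fastq 2.20, DESeq2 and bosTau9 were used; the aligner, the read counter, the annotation and the use of strand were not given in the sources used here. A deposited normalized table equals these counts divided by 1 constant per library and was not used. Counts were fitted in edgeR 4.0.16 (R 4.3.3) with TMM scaling, the default filter by group, 1 mean per group over all 4 groups and a robust quasi-likelihood test, adjusted by Benjamini-Hochberg over 22202 genes and called under 0.05. The biological coefficient of variation was 51.4%. Estimates are log2 fold changes with SE. Code was checked on simulated counts. Alternatives were DESeq2 1.42.0, limma 3.58.1 voom, other filters and size factors, thinning, fewer groups or libraries, and a covariate of summed olfactory receptor CPM. All members are named, per-library values are given for receptors and for genes leading their role, and from each list of other pathway genes the 3 largest called changes are given. HSD17B4, ACOX3 and ANGPTL4 were shown in full after their values were seen, and PPARGC1B was named after its value was seen. Members, lists, markers and the covariate were chosen with earlier results of these data known.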

Additional observations from a re-analysis of the deposited data

Results flagged for a closer look

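In each of the 4 groups the highest and lowest library of each gene were compared with the others of the group. Of 152 such sets of 4 or 5 libraries 5 held a library far from the rest, where chance alone gives about 1 in 20. Of the 5, 3 were the library grain_PHY 1, which also had the fewest reads. ACADM stood at 16.2 CPM in grain_PHY 1, below the other grain_PHY libraries, and at 33.7 CPM in forage_PHY 4, below the other forage_PHY libraries. ACOX3 stood at 15.3 CPM in grain_PHY 1, below the other grain_PHY libraries, and ACSL3 at 37.9 CPM in the same library, again below them. CD36 stood at 1.78 CPM in grain_control 5, below the other grain_control libraries. No gene of the set differed between arms in its diet response by the test of that difference.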

How the results depend on the processing

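No paired analysis was possible because the labels connect no library with an animal. For grain against forage over both arms, where 18 of the 38 genes were called, the count was 6 with a stricter filter on low counts (at least 5 CPM in a group), 9 with libraries thinned to the lowest total, 0 with the olfactory receptor covariate, and 0 without the 3 libraries with the most olfactory receptor CPM. It ran from 0 to 25 when 1 library was left out. Other settings (DESeq2's size factors, no filter, DESeq2, limma voom) stayed within 1.5 times. In PHY cows, where 0 were called, DESeq2 called 9, limma voom 20 and the PHY groups alone 5, with 0 to 4 when 1 library was left out. In control cows, between arms and for the difference of diet responses the count was 0 under every alternative run. The peroxisomal median of −0.36 was −0.077 with the stricter filter, −0.049 after thinning, 0.10 with the covariate and −0.087 without the 3 libraries, and the mitochondrial median of −0.52 was 0.018 with the covariate. The cause was not tested. The stricter filter left out 3 low genes of the set, and the median of all genes tested was then 0.0027 against 0.20. With no filter that median was 0.41.

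The sign of a gene's estimate turned round as follows, none of these values having an adjusted p under 0.05. With the covariate it did so for 19 genes: PPARA (0.10), PPARG (0.037), CPT1B (−0.078), CPT2 (0.021), ACADVL (0.13), HADHA (0.056), HADHB (0.20), ACAA2 (0.013), ECI1 (0.19), DECR1 (0.21), ETFA (0.12), ACAA1 (0.21), EHHADH (−0.024), HSD17B4 (0.15), ANGPTL4 (0.0069), FABP4 (0.043), CD36 (−0.16), ACSL1 (−0.066) and ACSL3 (0.13). SLC25A20 turned to −0.022 with no filter and −0.12 with limma voom, ANGPTL4 to 0.11 after thinning, and ACSL5 to 0.019 with DESeq2's size factors, 0.26 with the stricter filter, 0.019 with DESeq2 and 0.19 after thinning. When 1 library was left out, the sign turned in some of the 18 fits for CPT1B (5 fits, range −0.087 to 0.13), SLC25A20 (9 fits, range −0.11 to 0.067), ACOX3 (4 fits, range −0.062 to 0.10), EHHADH (3 fits, range −0.021 to 0.099) and ACSL5 (1 fit, range −0.16 to 0.056). Limits: each diet has 9 libraries of unknown pairing, read depth and the olfactory receptor reads go with diet, the settings of read counting are not known here, and levels are not comparable between genes without their lengths.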
